A study of Mus musculus with 9 samples.

Results

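The genes described here are 35 members of a module that runs from glucose uptake through glycolysis to lactate export, with the gate into the mitochondrion and the response of hypoxia-inducible factor 1 (HIF1). They were taken from the deposited gene table by gene name, where 36 rows of 26146 carried a member's name because 2 rows are called Aldoa. The cells were RAW264.7, a mouse macrophage-like line established from a tumour induced by Abelson leukaemia virus. Every group is this 1 line, so the libraries show what it does and not how macrophages from an animal behave. Poly(A) RNA was sequenced in 9 libraries, 3 for each of 3 groups, called M, ET and Normal after the columns of the deposited table. Normal cells carried no named agent. The other groups were cells given LPS, the bacterial lipopolysaccharide that activates macrophages through TLR4, either alone or together with a Traditional Chinese Medicine extract.

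The labels conflict on which of these is which. By the column named for each sample, M is LPS+Extract and ET is LPS, but by the library name of the same samples M is LPS and ET is LPS+Extract. No value was used to choose between them, so comparisons of M with ET carry no statement on the extract. The extract's composition, the doses and the length of treatment are not given in the sources used here. Nothing in the labels says that the 3 libraries of a group came from separate cultures, so p-values measure the spread between these libraries, which may be technical. Coordinates are those of the deposited table, whose starts and ends equal GENCODE M21 on GRCm38 for 23547 of 26146 genes (90.1%).

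As background, glycolysis splits glucose into pyruvate in the cytosol, and lactate dehydrogenase turns pyruvate into lactate, which monocarboxylate transporters carry out of the cell. Macrophages activated by LPS are known for raised glycolysis and lactate release. HIF1 is a pair of HIF1A and ARNT. In oxygen, prolyl hydroxylases mark HIF1A for the ubiquitin ligase that contains VHL, and stabilised HIF1 binds short DNA motifs near glycolytic genes and near its other targets.

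Total counts lay between 55039858 and 76242718 per library. Genes were tested where FPKM (fragments counted for a gene, scaled by the length of its model and by the library's depth) was at least 1 in at least 3 of the 9 libraries, which left 11536 genes. A gene is said to have risen or fallen where edgeR's quasi-likelihood test on the counts gave a Benjamini-Hochberg adjusted p under 0.05. ET replicate 3 stood apart from the other ET libraries, with a chi-square per gene of 26.2 and 21.4 against them, where the other ET pair had 14.5. Of 10 macrophage markers, summed FPKM was 2628 to 2680 in M, 2694 to 2890 in ET and 2313 to 2439 in Normal, with Aif1 close to 0 in every library. The sum holds changes both ways: of the 9 markers tested, 4 rose and 5 fell in M, and 4 rose and 4 fell in ET. Over all tested genes, 70.0% rose or fell against Normal in M and 70.2% in ET. Cd14, the LPS co-receptor, had 980 to 1030 FPKM in M and 910 to 997 FPKM in ET, against 195 to 206 FPKM in Normal, and Lyz2, lysozyme, had 539 to 562 FPKM in M and 654 to 697 FPKM in ET, against 953 to 1040 FPKM in Normal. Of 7 fibroblast markers the sum was 4.16 to 6.13 in M, 3.07 to 3.57 in ET and 0.0273 to 0.0731 in Normal, nearly all of it Lum, which was at 0 in Normal. The 5 endothelial markers summed to 3.24 to 3.60 in M, 2.90 to 3.27 in ET and 0.780 to 0.965 in Normal, and the 5 erythroid markers in the table to 1.10 to 1.44 in M, 1.07 to 1.68 in ET and 0.0353 to 0.0937 in Normal. The 4 lymphocyte markers in the table summed to 0.562 to 0.725 in M, 0.596 to 1.38 in ET and 0.0442 to 0.268 in Normal. Nearly all of this sum in M and ET was Cd79a. The 3 epithelial markers in the table summed to at most 0.0392 FPKM in every library. Mitochondrial genes held 3.46 to 3.78% of counts in M and 3.29 to 3.62% in ET, against 4.39 to 4.61% in Normal. The part of other cells and of the mitochondrial share in the results below was not tested.

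Most of the module was higher in M and in ET than in Normal. In M, 26 of the 33 tested rows rose over Normal and 4 fell, beside a background of 70.0% of all tested genes called in this comparison (35.5% higher, 34.5% lower). In ET, 26 rose and 5 fell, beside 70.2% of all genes called (35% higher, 35.2% lower). For the mean of M and ET over Normal, 26 rose and 5 fell, beside 73.5% of all genes called (36.8% higher, 36.8% lower). These comparisons use the same Normal libraries. The median log2 fold change of the rows was 0.57 in M and 0.56 in ET, against -0.01 and -0.02 over all tested genes. The members were chosen with earlier results of these data known, so these contrasts with all genes are no test of the module. A rise of at least 2-fold was called for 10 rows in M, beside 10.6% of all genes, and for 9 in ET, beside 10.8%. Eno2 reached the expression minimum only in the M and ET libraries. The smaller Aldoa row reached it in every Normal library and in M replicate 1, at 1.09 FPKM. Its mean was 0.709 FPKM in M and 0.726 FPKM in ET. The filter thus favoured a difference for both rows. Without them, 25 rose and 3 fell of 31 in M, and 25 rose and 4 fell in ET. In bulk RNA, a change in the number of cells that express a gene and a change in RNA per cell cannot be told apart.

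Together the members took 1.71 to 1.78% of all FPKM in M libraries and 1.73 to 1.81% in ET libraries, against 1.24 to 1.28% in Normal libraries. Neither treated group overlapped Normal on this measure, while M and ET overlapped each other.

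**Figure D1:**
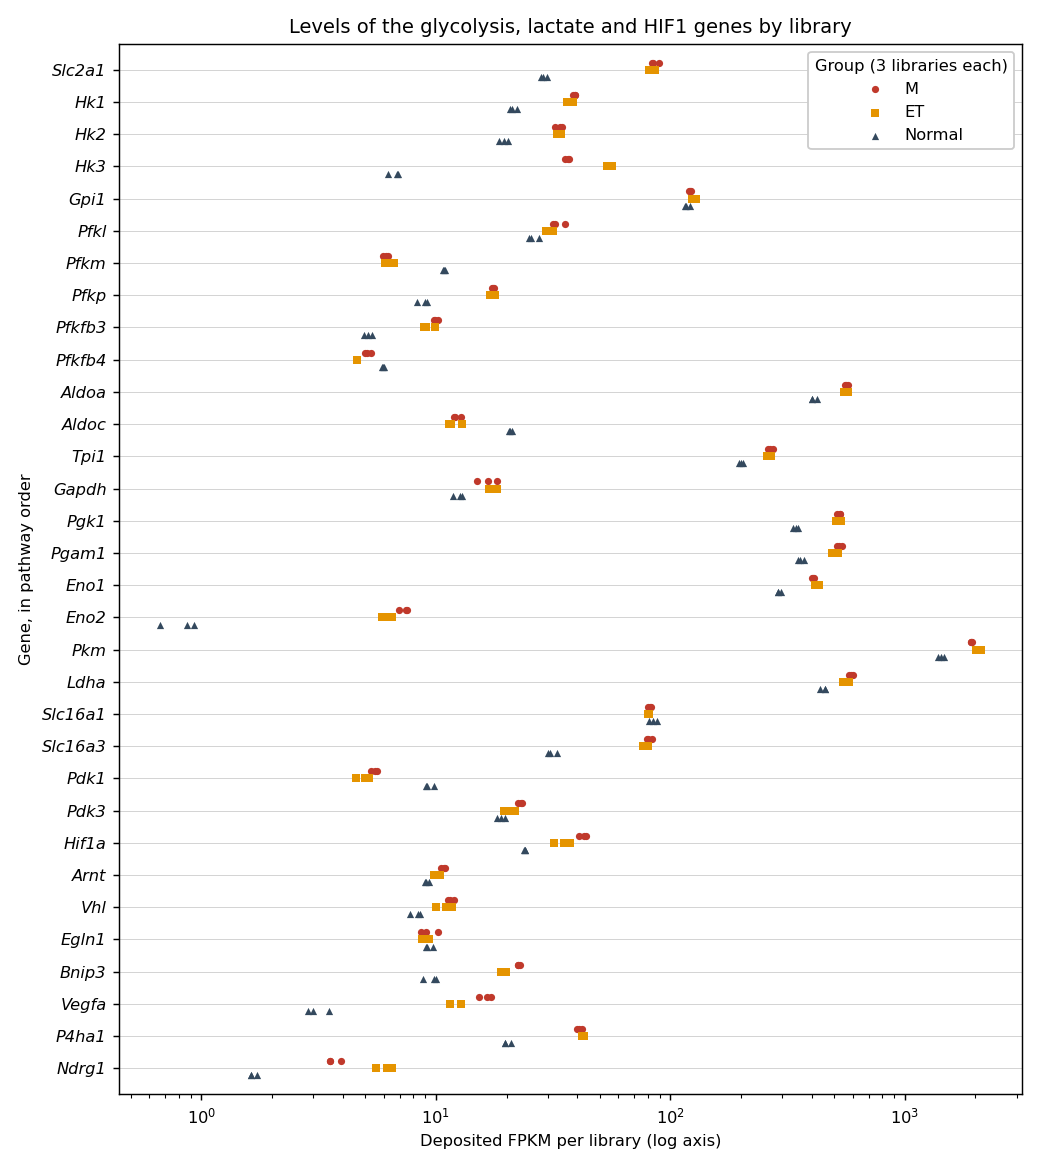
Deposited FPKM of each tested gene (log axis) in pathway order from top to bottom, 1 point per library, with M as circles, ET as squares and Normal as triangles (3 libraries each); the smaller Aldoa row is left out. Levels span from Eno2 at 0.667 to 0.929 in Normal to Pkm at 2019 to 2120 in ET, and the groups stand apart most at Hk3, Eno2 and Vegfa.

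The promoters of 6 members are shown because these genes took different courses with the same kind of letters upstream. Hk3, Ldha, Slc16a3 and Bnip3 rose, Slc16a1 was not called and Pdk1 fell. Each line is the 250 bases before a RefSeq start on GRCm38.p6, read along the gene's strand, with capitals marking ACGTG or GCGTG on either strand, the core of the hypoxia response element that HIF1 binds. The windows are chr13:55021386-55021635 on the minus strand for Hk3, chr7:46845554-46845803 on the plus strand for Ldha, chr11:120948817-120949066 (plus) for Slc16a3, chr3:104638414-104638663 (plus) for Slc16a1, chr2:71872974-71873223 (plus) for Pdk1, and chr7:138909507-138909756 (minus) for Bnip3.
Hk3: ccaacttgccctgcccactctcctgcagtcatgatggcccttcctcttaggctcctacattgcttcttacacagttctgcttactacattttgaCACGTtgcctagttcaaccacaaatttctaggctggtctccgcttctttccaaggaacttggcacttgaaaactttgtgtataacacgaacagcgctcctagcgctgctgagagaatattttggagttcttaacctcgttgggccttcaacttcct
Ldha: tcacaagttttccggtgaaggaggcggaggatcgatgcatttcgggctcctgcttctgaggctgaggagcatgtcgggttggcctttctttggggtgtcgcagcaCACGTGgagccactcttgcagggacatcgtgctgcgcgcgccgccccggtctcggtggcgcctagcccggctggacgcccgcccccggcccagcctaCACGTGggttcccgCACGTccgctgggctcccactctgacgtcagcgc
Slc16a3: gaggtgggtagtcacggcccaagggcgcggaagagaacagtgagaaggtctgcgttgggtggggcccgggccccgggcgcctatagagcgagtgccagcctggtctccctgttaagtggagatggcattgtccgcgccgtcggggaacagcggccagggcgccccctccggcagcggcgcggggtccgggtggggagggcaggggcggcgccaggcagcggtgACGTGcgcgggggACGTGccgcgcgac
Slc16a1: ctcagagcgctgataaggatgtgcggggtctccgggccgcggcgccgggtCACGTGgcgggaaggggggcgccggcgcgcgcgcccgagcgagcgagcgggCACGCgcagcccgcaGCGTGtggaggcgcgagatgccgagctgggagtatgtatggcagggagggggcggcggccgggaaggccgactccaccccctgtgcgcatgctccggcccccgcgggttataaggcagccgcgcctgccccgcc
Pdk1: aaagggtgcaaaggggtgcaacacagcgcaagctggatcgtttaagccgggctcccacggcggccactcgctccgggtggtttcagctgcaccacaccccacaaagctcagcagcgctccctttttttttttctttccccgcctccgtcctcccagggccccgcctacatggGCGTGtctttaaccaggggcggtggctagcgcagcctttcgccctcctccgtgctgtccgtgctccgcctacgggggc
Bnip3: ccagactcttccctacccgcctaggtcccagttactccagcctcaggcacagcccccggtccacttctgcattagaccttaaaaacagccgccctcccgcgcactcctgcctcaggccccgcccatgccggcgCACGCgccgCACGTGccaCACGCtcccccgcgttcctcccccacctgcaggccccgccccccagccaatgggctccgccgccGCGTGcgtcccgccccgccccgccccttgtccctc
In the windows shown, Hk3 held 1 match, 156 bases before its start, and Pdk1 held 1, at 78 bases. Slc16a3 held 2 matches close to the start, at 27 and 14 bases. Slc16a1 held 4, at 200, 199, 149 and 134 bases, where the first pair is the palindrome CACGTG read on both strands. Ldha held 5, of which 4 are 2 such palindromes, at 145 and 144 bases and at 48 and 47 bases. Bnip3 also held 5, with 1 palindrome at 108 and 107 bases. Ldha and Pdk1 each have another window at a different start, not shown, with 1 match for Ldha and none for Pdk1.

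Over the module, 34 of 35 members matched the RefSeq promoter table, Ndrg1 being the member without a window. At least 1 window with a match was present in 30 of the 34 genes (88.2%), against 41.5% of all 27025 genes in the table. Counted by window the share was 79.2% of 48 member windows, against 38.6% of all 32851 windows and 54.5% of 9456 windows with GC content in the members' interquartile range. Member windows were richer in GC, with a median of 61.0% against 52.4% over all windows. The 4 genes without a match in any window, Gpi1, Tpi1, Eno2 and Vhl, all rose. Hk1, Aldoa, Pkm, Ldha, Slc16a3, Hif1a, Vegfa and P4ha2 were counted as matched only through windows inside the gene's annotated span. For Hk1, Pkm and Vegfa the matched window had 186, 140 and 218 of its 250 bases in exons. For the same genes, the window at or just upstream of the annotated start held no match. Matches were present in all 4 members that fell in the mean of M and ET, Pfkm, Pfkfb4, Aldoc and Pdk1, and in both members that were not called, Slc16a1 and Egln1. A match is a description of letters and not a site in use.

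The transcripts of the glucose carrier and the 3 hexokinases in the module rose in both groups. Slc2a1 (ENSMUSG00000028645, chr4:119108711-119137983, plus strand) encodes GLUT1, the widespread glucose carrier of the plasma membrane. It stood at 83.5, 89.5 and 83.9 FPKM in M and 85.6, 85.1 and 80.9 FPKM in ET, against 28.5, 28.0 and 29.7 FPKM in Normal. No treated library came near Normal, and M and ET overlapped. The log2 fold change was 1.66 with an SE of 0.041 in M (edgeR adjusted p = 1.76e-12) and 1.62 with an SE of 0.041 in ET (edgeR adjusted p = 2.38e-12).

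The hexokinases trap glucose as glucose-6-phosphate, and all 3 in the module rose. Hk3 (ENSMUSG00000025877, chr13:55005985-55021385, minus strand) had 36.6, 37.0 and 35.4 FPKM in M and 56.4, 56.0 and 53.7 FPKM in ET, against 6.84, 6.92 and 6.23 FPKM in Normal. The groups formed 3 separate levels, with ET highest and Normal lowest. Hk3 rose 5.78-fold in M (log2 2.53, SE 0.048, edgeR adjusted p = 1.34e-13) and 8.74-fold in ET (log2 3.13, SE 0.048, edgeR adjusted p = 3.59e-14). Hk1, the broadly expressed hexokinase, had 38.4 to 39.1 FPKM in M and 36.4 to 38.4 FPKM in ET, against 20.8 to 22.2 FPKM in Normal. Hk2, which binds mitochondria, had 32.1 to 34.5 FPKM in M and 32.8 to 34.0 FPKM in ET, against 18.6 to 20.2 FPKM in Normal. Hk1 rose 1.93-fold in M and 1.86-fold in ET, and Hk2 1.83-fold in M and 1.82-fold in ET.

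Because Hk3 rose most, the makeup of the hexokinases differed by group. Hk3 held 32.7 to 34.0% of the FPKM of the 3 hexokinases in M and 43.3 to 44.0% in ET, against 13.1 to 14.7% in Normal. Hk1 and Hk2, each at 39.0% or more in every Normal library, were at 35.4 to 36.2% and 29.8 to 31.9% in M and at 29.3 to 30.2% and 25.8 to 27.4% in ET. None of these shares overlapped between groups. An exact two-sided permutation test of 3 against 3 libraries cannot go below p = 0.1, and gave p = 0.1 for each.

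The middle of the pathway was mixed, with 1 form of several enzymes higher and another lower. Phosphofructokinase commits the sugar to glycolysis. Pfkp, the platelet-type form, had 17.3 to 17.7 FPKM in M and 17.0 to 17.9 FPKM in ET, against 8.33 to 9.18 FPKM in Normal, and rose by 1.07 in M and 1.06 in ET on the log2 scale. Pfkm, the muscle form, fell to 5.97 to 6.23 FPKM in M and 6.08 to 6.65 FPKM in ET, against 10.7 to 10.9 FPKM in Normal. Its log2 fold change was -0.73 with an SE of 0.060 in M and -0.68 with an SE of 0.059 in ET. Pfkl, the liver form and the most abundant in each group, rose 1.35-fold in M and 1.23-fold in ET. Pfkl held 54.7 to 60.0% of phosphofructokinase FPKM over all 9 libraries, and its share overlapped between all groups. Pfkp held 29.6 to 31.9% in M and 31.4 to 33.0% in ET, against 18.7 to 20.1% in Normal, and Pfkm 10.4 to 11.2% in M and 11.6 to 12.3% in ET, against 23.0 to 24.1% in Normal.

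Limits apply to both changed forms. Senp1 overlaps Pfkm on the opposite strand with 312% of its counts over all libraries, and Pitrm1 overlaps Pfkp with 60.6% of its counts. No source used here gives the strand setting of the counting, so reads may have been split between the partners. Senp1 itself fell by 0.36 on the log2 scale in M and by 0.47 in ET, while Pitrm1 was not called, at 0.03 in M and -0.02 in ET. The part of the overlap in the values of Pfkm and Pfkp was not tested.

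Pfkfb3 and Pfkfb4 encode enzymes that make and break down fructose-2,6-bisphosphate, a potent activator of phosphofructokinase. Pfkfb3 (ENSMUSG00000026773, chr2:11471433-11554077, minus strand), whose product favours synthesis, had 9.81, 9.94 and 10.2 FPKM in M and 9.07, 9.92 and 8.93 FPKM in ET, against 5.14, 5.34 and 4.92 FPKM in Normal. It rose 2.06-fold in M and 1.91-fold in ET (edgeR adjusted p = 1.12e-09 and 3.51e-09). Pfkfb4 had 5.06, 5.31 and 4.96 FPKM in M and 4.62, 4.59 and 4.59 FPKM in ET, against 5.88, 5.97 and 6.03 FPKM in Normal. Pfkfb4 fell in ET, with a log2 fold change of -0.30 and an SE of 0.058 (edgeR adjusted p = 5.22e-04). In M its log2 fold change was -0.13 with an SE of 0.058, and edgeR's adjusted p of 0.0528 missed the threshold. In M the call was made under total-count scaling (log2 -0.23) and in 4 other alternatives. Pfkfb3 made up 65.2 to 67.2% of the pair's FPKM in M and 66.1 to 68.3% in ET, against 44.9 to 47.2% in Normal, so the more abundant member of the pair was Pfkfb3 in M and ET and Pfkfb4 in Normal.

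**Figure D2:**
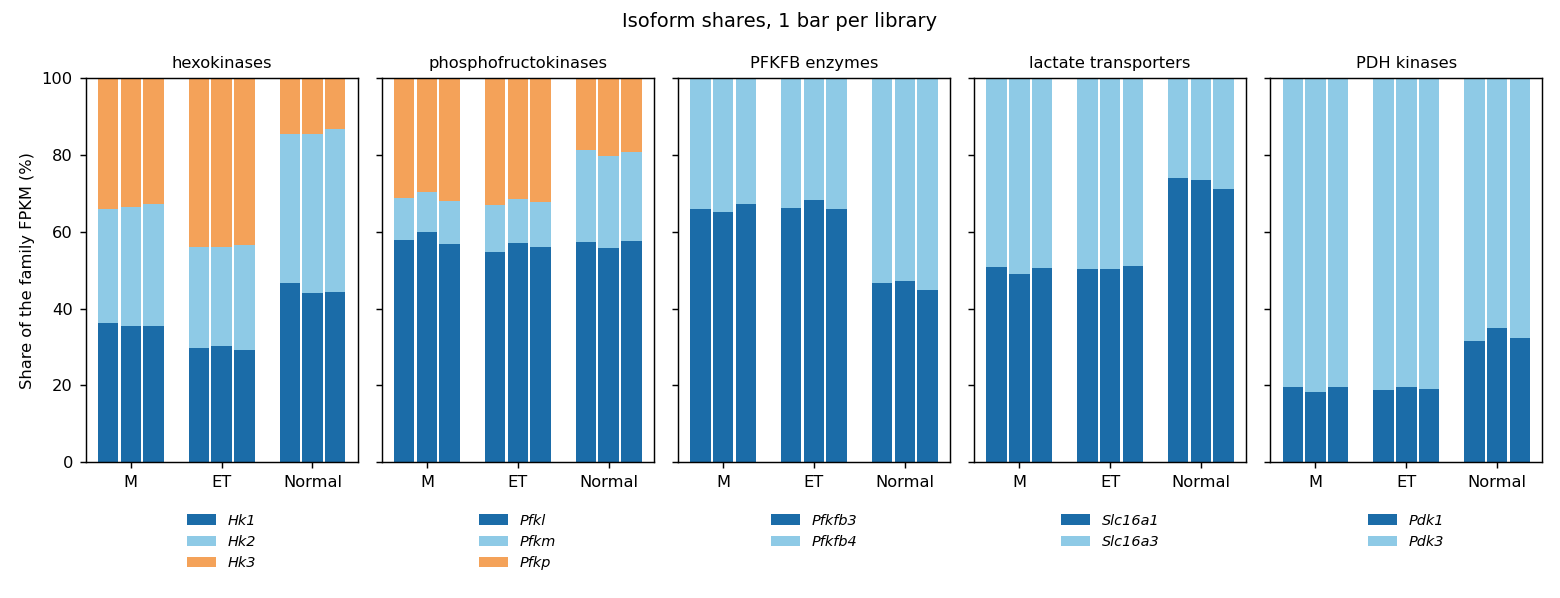
Share of each family's summed FPKM (percent) held by each gene, 1 bar per library, with M, ET and Normal libraries from left to right in every panel. Hk3, Pfkp, Pfkfb3 and Slc16a3 hold larger shares and Pfkm, Pfkfb4, Slc16a1 and Pdk1 smaller shares in every M and ET library than in any Normal library.

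Gpi1 encodes the isomerase that follows hexokinase. It had 120, 123 and 121 FPKM in M and 128, 127 and 124 FPKM in ET, against 117, 115 and 121 FPKM in Normal, so FPKM overlapped between M and Normal. Its log2 fold change was 0.13 with an SE of 0.029 in M (edgeR adjusted p = 0.00155) and 0.18 with an SE of 0.029 in ET (edgeR adjusted p = 1.19e-04). This call rests on the scaling. With total counts the value in M was 0.04 (edgeR adjusted p = 0.246), and with quantile-normalised log2 FPKM in limma it was -0.08 in M and -0.03 in ET. No other called member changed direction against Normal in any alternative run.

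Aldolase splits the sugar, and triose phosphate isomerase interconverts the products. Aldoa, the main aldolase, had 554 to 571 FPKM in M and 551 to 574 FPKM in ET, against 400 to 424 FPKM in Normal, a rise of 1.46-fold in both. The smaller row named Aldoa (ENSMUSG00000114515) held 620 counts in all and fell to 21 to 58 counts in M and 22 to 46 counts in ET, against 85 to 183 counts in Normal. Aldoc, the form best known from brain, fell to 11.9 to 12.8 FPKM in M and 11.4 to 12.9 FPKM in ET, against 20.4 to 21.1 FPKM in Normal. Its log2 fold change was -0.67 with an SE of 0.056 in M and -0.72 with an SE of 0.056 in ET. Aldoa still held 97.8 to 98.0% of aldolase FPKM in M and in ET, against 95.0 to 95.4% in Normal, counting its main row and Aldoc. Tpi1 rose 1.41-fold in M and 1.38-fold in ET.

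All 6 members of the lower, energy-yielding part of glycolysis rose in both groups, beside 35.5% of all tested genes in M and 35% in ET. For Eno2, 1 of them, the filter favoured a rise, as given above. Pkm (ENSMUSG00000032294, chr9:59656368-59679375, plus strand), pyruvate kinase, was the most abundant member, with 1909, 1942 and 1922 FPKM in M and 2089, 2120 and 2019 FPKM in ET, against 1430, 1385 and 1463 FPKM in Normal. It rose 1.43-fold in M and 1.53-fold in ET. Gm49759, on the same strand, overlaps Pkm with 2.05% of its counts. Pgk1, phosphoglycerate kinase, rose 1.62-fold in M and 1.61-fold in ET, and Pgam1, phosphoglycerate mutase, 1.55-fold in M and 1.48-fold in ET. These folds sit in a narrow range: apart from Eno2, the 6 genes lay between 1.41-fold for Gapdh in M and 1.62-fold for Pgk1 in M.

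Eno2 (ENSMUSG00000004267, chr6:124760053-124769621, minus strand) encodes the gamma enolase known from neurons. It had 6.98, 7.53 and 7.46 FPKM in M and 6.31, 5.88 and 6.47 FPKM in ET, against 0.865, 0.929 and 0.667 FPKM in Normal. The rise of 9.28-fold in M (log2 3.21, SE 0.11, edgeR adjusted p = 2.94e-11) and 7.83-fold in ET (log2 2.97, SE 0.11, edgeR adjusted p = 6.31e-11) began from a low level. Eno2 held 1.67 to 1.83% of the FPKM of Eno1 and Eno2 in M and 1.35 to 1.54% in ET, against 0.225 to 0.322% in Normal. Eno1, the ubiquitous alpha enolase, had 401 to 410 FPKM in M and 413 to 431 FPKM in ET, against 288 to 296 FPKM in Normal, and rose 1.48-fold in M and 1.54-fold in ET.

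The counts of Gapdh, the glyceraldehyde-3-phosphate dehydrogenase often used as a reference gene, sat mostly in other rows. Its own row had 4025, 4238 and 4762 counts in M and 5094, 4075 and 4536 counts in ET, against 3454, 4360 and 2980 counts in Normal. The 76 rows whose transcripts match Gapdh at 95% identity or more over 300 bases or more held 2241911 counts, 98.4% of the sum over all libraries. This share was 98.2 to 98.5% in M, 98.3 to 98.4% in ET and 98.2 to 98.5% in Normal. Gapdh's FPKM of 11.8 to 18.3 therefore does not give its level beside the other genes. The row rose 1.41-fold in M and 1.46-fold in ET, and with the copies added the log2 fold change was 0.52 in M and 0.57 in ET, against 0.50 and 0.55 for the row alone. Iffo1 overlaps Gapdh on the opposite strand with 18.9% of the row's counts.

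Near-identical copies of Eno1, the rows Eno1b, Gm4735 and Gm5855, held 44.9% of the summed counts, and whether those reads came from Eno1 was not tested. The log2 fold change with these copies was 0.58 in M and 0.61 in ET, against 0.57 and 0.62 without. For Pgam1, Bnip3 and Pgk1 the copies held 5.36%, 5.32% and 3.39%, and for Gpi1, Tpi1, Pkm and Ldha under 1%.

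**Figure D3:**
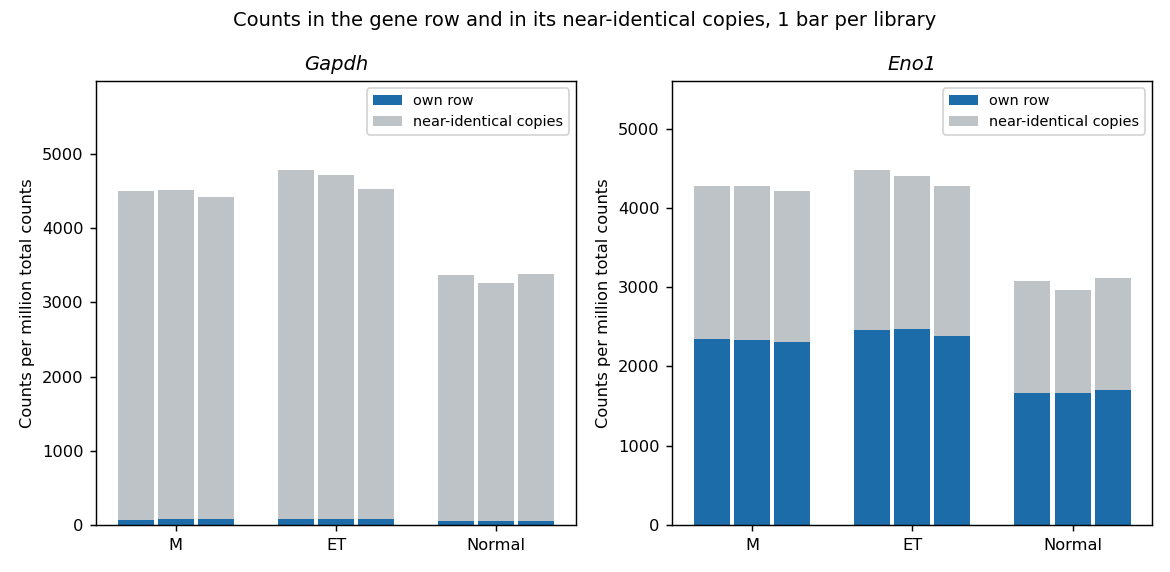
Counts scaled to each library's total (CPM) in the row of Gapdh (left) and Eno1 (right) and in their near-identical copies, stacked, 1 bar per library with M, ET and Normal from left to right. The Gapdh row is a thin base under its copies in all 9 libraries, and the stacked sums of both genes are higher in every M and ET library than in any Normal library.

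At the end of the pathway, the transcripts of Ldha and of 1 of the 2 lactate carriers rose. Ldha (ENSMUSG00000063229, chr7:46841475-46855627, plus strand), the lactate dehydrogenase subunit that favours lactate, had 575, 598 and 587 FPKM in M and 576, 573 and 544 FPKM in ET, against 457, 435 and 457 FPKM in Normal. It rose 1.39-fold in M and 1.32-fold in ET (edgeR adjusted p = 3.80e-08 and 1.72e-07). Ldhb, the other subunit, had 4, 0 and 7 counts in M and 0 in every ET and Normal library, and was not tested.

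Slc16a3 (ENSMUSG00000025161, chr11:120948480-120958775, plus strand) encodes MCT4, the lactate exporter of strongly glycolytic cells, and Slc16a1 (ENSMUSG00000032902, chr3:104638668-104658462, plus strand) encodes MCT1, which carries lactate in either direction. Slc16a3 had 80.2, 83.6 and 79.5 FPKM in M and 80.6, 80.2 and 76.4 FPKM in ET, against 30.6, 30.2 and 32.8 FPKM in Normal. Every M and ET library was well above Normal. It rose 2.76-fold in M (log2 1.47, SE 0.040, edgeR adjusted p = 4.55e-12) and 2.67-fold in ET (log2 1.42, SE 0.040, edgeR adjusted p = 6.49e-12). Slc16a1 had 82.8, 80.2 and 81.8 FPKM in M and 81.4, 81.2 and 80.0 FPKM in ET, against 87.6, 83.9 and 81.0 FPKM in Normal. M and Normal overlapped, and the log2 fold change was 0.04 with an SE of 0.036 in M (edgeR adjusted p = 0.302) and 0.02 with an SE of 0.036 in ET (edgeR adjusted p = 0.657). Quantile-normalised values gave -0.08 in M and -0.10 in ET for Slc16a1 in limma, with adjusted p of 0.0373 and 0.0132. Slc16a3 made up 49.2 to 51.0% of the pair's FPKM in M and 48.9 to 49.7% in ET, against 25.9 to 28.8% in Normal.

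Pyruvate dehydrogenase kinases switch off the enzyme that sends pyruvate into the mitochondrion, and the 2 in the module moved in opposite directions. Pdk1 (ENSMUSG00000006494, chr2:71873224-71903858, plus strand), a well-known HIF1 target, fell to 5.62, 5.27 and 5.48 FPKM in M and 4.99, 5.16 and 4.58 FPKM in ET, against 9.13, 9.82 and 9.04 FPKM in Normal. All 6 M and ET libraries were below all Normal libraries. The log2 fold change was -0.69 with an SE of 0.057 in M (edgeR adjusted p = 2.69e-07) and -0.85 with an SE of 0.058 in ET (edgeR adjusted p = 3.47e-08). Pdk3 had 23.0, 23.4 and 22.3 FPKM in M and 21.7, 21.2 and 19.5 FPKM in ET, against 19.7, 18.3 and 19.0 FPKM in Normal. It rose 1.28-fold in M (edgeR adjusted p = 7.07e-05) and 1.15-fold in ET (edgeR adjusted p = 0.00436), with FPKM overlapping between ET and Normal.

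Both subunits of HIF1 rose. Hif1a (ENSMUSG00000021109, chr12:73901375-73947530, plus strand), the oxygen-regulated subunit, had 43.8, 40.9 and 42.6 FPKM in M and 32.0, 35.2 and 37.4 FPKM in ET, against 24.0, 24.0 and 23.7 FPKM in Normal, and the 3 groups did not overlap. Its log2 fold change was 0.92 with an SE of 0.052 in M (edgeR adjusted p = 5.94e-09) and 0.62 with an SE of 0.052 in ET (edgeR adjusted p = 2.64e-07). Arnt, its constant partner, had 10.5 to 10.9 FPKM in M and 9.83 to 10.4 FPKM in ET, against 8.97 to 9.35 FPKM in Normal, and rose 1.25-fold in M and 1.18-fold in ET. Transcript level does not show the HIF1A protein, which is governed by its breakdown.

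Of the degradation machinery, Vhl had 11.3 to 11.9 FPKM in M and 10.0 to 11.7 FPKM in ET, against 7.76 to 8.52 FPKM in Normal, and rose 1.50-fold in M and 1.40-fold in ET. Egln1, the main prolyl hydroxylase, had 8.67 to 10.2 FPKM in M and 8.74 to 9.33 FPKM in ET, against 9.05 to 9.67 FPKM in Normal. It was not called, at a log2 fold change of 0.09 with an SE of 0.069 in M and 0.02 with an SE of 0.069 in ET. Egln3, a hydroxylase that is itself a known HIF1 target, had 24 to 45 counts in M, 21 to 41 in ET and 8 to 27 in Normal libraries and was not tested.

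Vegfa, Bnip3, Ndrg1 and P4ha1, the tested members listed as HIF1 targets outside metabolism, each rose by at least 2-fold in both groups, while Pdk1, also a HIF1 target, fell as given above. Vegfa (ENSMUSG00000023951, chr17:46016993-46032369, minus strand), the vascular growth factor, had 15.3, 16.5 and 17.2 FPKM in M and 11.5, 11.5 and 12.8 FPKM in ET, against 3.00, 2.84 and 3.50 FPKM in Normal. It rose 5.58-fold in M (log2 2.48, SE 0.082, edgeR adjusted p = 3.10e-11) and 4.04-fold in ET (log2 2.01, SE 0.082, edgeR adjusted p = 2.22e-10). Bnip3 (ENSMUSG00000078566, chr7:138890836-138909519, minus strand), a receptor for mitophagy, had 22.5, 22.8 and 22.4 FPKM in M and 18.9, 19.1 and 19.9 FPKM in ET, against 9.85, 10.0 and 8.79 FPKM in Normal. The rise was 2.51-fold in M and 2.13-fold in ET.

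Ndrg1 (ENSMUSG00000005125, chr15:66929318-66969640, minus strand), a stress-responsive gene induced by hypoxia, had 3.92, 3.55 and 3.52 FPKM in M and 6.51, 6.16 and 5.57 FPKM in ET, against 1.63, 1.62 and 1.72 FPKM in Normal. It rose 2.35-fold in M (log2 1.23, SE 0.078) and 3.87-fold in ET (log2 1.95, SE 0.078). P4ha1, a collagen prolyl hydroxylase, had 39.8 to 42.0 FPKM in M and 41.8 to 42.6 FPKM in ET, against 19.7 to 21.0 FPKM in Normal, a rise of 2.16-fold in M and 2.22-fold in ET. Its relative P4ha2 had 8 counts in 1 M library and 0 in the other libraries, and was not tested.

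**Figure D4:**
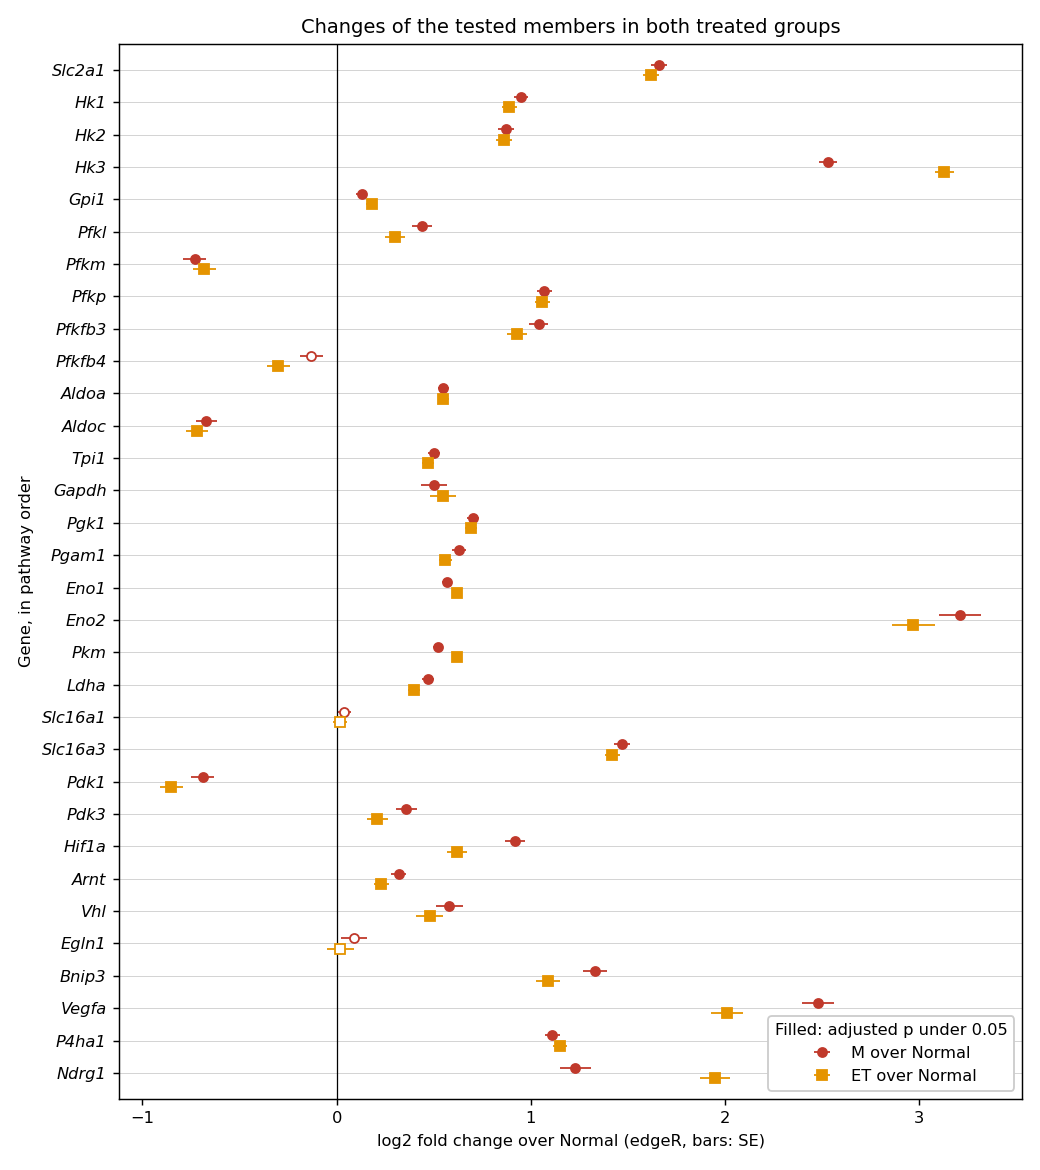
log2 fold change over Normal (edgeR, bars are SE) of each tested gene in pathway order, with M over Normal as circles and ET over Normal as squares, filled where the adjusted p was under 0.05; the smaller Aldoa row is left out. Most points lie right of 0. Pfkm, Pfkfb4, Aldoc and Pdk1 lie left of it in both groups, with Pfkfb4 not filled in M. The 2 symbols part most at Hk3 and Ndrg1.

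Between M and ET, 27 of the 33 tested rows were not called. Of the 33 rows, 3 were higher in M (Hif1a, Bnip3 and Vegfa) and 3 were lower in M (Hk3, Pkm and Ndrg1), where 9.08% of all tested genes were called in this comparison (4.97% higher, 4.12% lower). Groups did not overlap in scaled counts for 13 rows higher and 4 rows lower in M, beside 28.7% of all genes. Over all genes the counts of calls moved with ET replicate 3: without it 1121 genes were higher and 707 lower in M, against 573 and 475 with it. Among members the calls without that library were again 3 higher and 3 lower.

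Among the HIF1 targets, differences ran in both directions. Ndrg1 was lower in M, with 3.52 to 3.92 FPKM against 5.57 to 6.51 FPKM in ET (log2 -0.72, SE 0.075, edgeR adjusted p = 1.01e-04). Vegfa was higher in M, with 15.3 to 17.2 FPKM against 11.5 to 12.8 FPKM in ET (log2 0.47, SE 0.077, edgeR adjusted p = 0.00281). P4ha1 was not called, at a log2 fold change of -0.04 with an SE of 0.037. Bnip3 was higher in M by 0.24 (SE 0.060, edgeR adjusted p = 0.0288), a call that ended in 7 of 20 alternatives, among them leaving out any 1 of M replicates 1, 2 and 3 or ET replicates 1 and 2 (adjusted p of 0.0808 to 0.107 with edgeR) and the replicate block (edgeR adjusted p = 0.055).

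Hif1a was higher in M by 0.29 on the log2 scale (SE 0.052, edgeR adjusted p = 0.00419). Hk3 was lower in M by a log2 fold change of -0.60 (SE 0.044, edgeR adjusted p = 5.59e-06). For Hk3, Ndrg1, Hif1a and Vegfa the call held in all 20 alternatives run, with the highest adjusted p at 0.0236, for Hif1a. Pkm was lower in M by a fold of 0.934 (log2 -0.10, SE 0.025, edgeR adjusted p = 0.0302). That call ended in 11 of 20 alternatives, with any 1 of M replicates 1, 2 and 3 or ET replicates 1 and 2 left out (edgeR adjusted p = 0.0659 to 0.121), under the replicate block (edgeR adjusted p = 0.0593), and with a value of 0.03 after quantile normalisation in limma. The glucose carrier, Slc16a3 and Ldha were not called, at 0.04 (SE 0.040), 0.05 (SE 0.039) and 0.07 (SE 0.032) on the log2 scale.

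**Figure D5:**
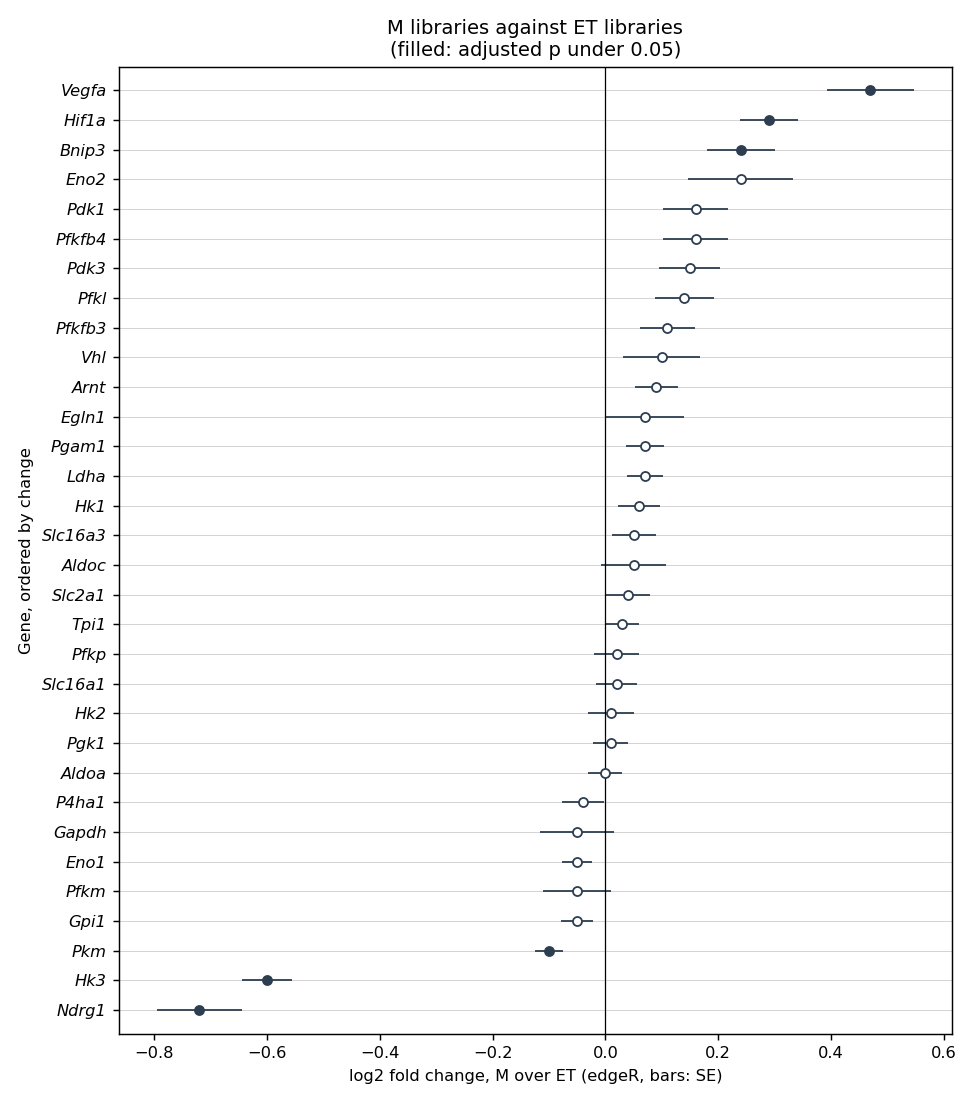
log2 fold change of M over ET (edgeR, bars are SE) of the tested genes, ordered from highest to lowest and filled where the adjusted p was under 0.05; the smaller Aldoa row is left out. Vegfa, Hif1a and Bnip3 are the filled points right of 0 and Pkm, Hk3 and Ndrg1 those left of it, with Ndrg1 at -0.72 and Vegfa at 0.47.

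Genes of the same pathways outside the module were counted from 4 further lists, also chosen with earlier results of these data known. Of 13 tested other glycolysis genes, 4 rose and 5 fell in M and 4 rose and 5 fell in ET, with median log2 fold changes of -0.19 and 0.03. For these and the next lists, the shares over all tested genes were 35.5% higher and 34.5% lower in M and 35% higher and 35.2% lower in ET, and the counts of glycolysis genes lay near them. Slc2a6, a glucose transporter family member of intracellular membranes, fell to 32.5 to 34.3 FPKM in M and 27.9 to 29.7 FPKM in ET, against 62.0 to 66.3 FPKM in Normal. Eno3, the muscle enolase, fell to 11.8 to 12.9 FPKM in M and 7.55 to 8.16 FPKM in ET, against 24.8 to 28.1 FPKM in Normal. It was higher in M than in ET (log2 0.65, SE 0.070, edgeR adjusted p = 1.35e-04). Pgm1, a phosphoglucomutase that links glycogen with glycolysis, rose by 0.79 (SE 0.050) in M and 0.76 (SE 0.050) in ET on the log2 scale.

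Of 13 tested other pyruvate and lactate genes, 4 rose and 6 fell in M, and 5 rose and 8 fell in ET, with medians of -0.17 and -0.18, beside 70.0% of all tested genes called in either direction in M and 70.2% in ET. Bsg, basigin, the chaperone that brings MCT1 and MCT4 to the membrane, rose to 210, 225 and 220 FPKM in M and 223, 217 and 203 FPKM in ET, against 121, 114 and 117 FPKM in Normal. Mpc1, a subunit of the mitochondrial pyruvate carrier, fell by 0.73 (SE 0.085) in M and by 0.61 (SE 0.085) in ET on the log2 scale. Pcx, pyruvate carboxylase, rose by 0.68 (SE 0.076) in M and by 1.10 (SE 0.076) in ET, and was lower in M than in ET by a log2 fold change of -0.43 (edgeR adjusted p = 0.00436).

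Of 12 tested other HIF regulators, 4 rose and 4 fell in M, and 2 rose and 4 fell in ET, with medians of 0.03 and -0.02. In M these counts lay near the shares over all genes, 35.5% higher and 34.5% lower. Cited2, a transcriptional regulator that competes with HIF1A for its coactivators, rose to 346, 356 and 356 FPKM in M and 361, 365 and 349 FPKM in ET, against 168, 167 and 171 FPKM in Normal (edgeR adjusted p = 2.08e-12 in M and 2.05e-12 in ET). The ubiquitin ligases Siah1a and Siah1b, close paralogs between which reads may have been split, fell by 0.28 (SE 0.10) and 0.30 (SE 0.096) in M and by 0.38 (SE 0.10) and 0.29 (SE 0.096) in ET.

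Of 26 tested other HIF1 targets, 19 rose and 4 fell in M, and 16 rose and 4 fell in ET, with medians of 0.48 and 0.37. The 2 genes at 0 in Normal lie far above the median even at their lower bounds. Setting them there could therefore not change the medians. Nos2, the inducible nitric oxide synthase, and Edn1, endothelin 1, had 0 counts in every Normal library. With a floor of 3 counts per Normal library, Nos2 was at least 7305-fold higher in M and at least 7072-fold higher in ET, and Edn1 at least 1322-fold higher in M and at least 1307-fold higher in ET. The floor covers counting error only.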

How the data were processed

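Poly(A) RNA libraries were made with dUTP marking and sequenced as pairs, per the labels' protocols. Per the submitters' processing notes, cutadapt 1.9, HISAT2 2.2.1, StringTie 2.1.6, DESeq2 and edgeR were used. The sources used here give neither the counting tool nor its strand setting nor the genome build. The authors deposited 1 table with an unscaled count and an FPKM for each gene in each library, per the file headers. Nearly all deposited FPKM follow from the counts with 1 length per gene. Each label names its sample's FPKM column, which gave the link between samples and columns.

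The module's members and the further gene lists were chosen with earlier results of these data known. Counts were tested in R 4.3.3 with edgeR 4.0.16 (TMM factors, glmQLFit and glmQLFTest, 1 fit of the 3 groups, Benjamini-Hochberg over 11536 genes at 0.05). Contrasts were M with Normal, ET with Normal, their mean with Normal, and M with ET. SE is the log2 fold change divided by the square root of F. Shares within a family were compared with exact permutation tests. All 35 members are named. Of the further lists, the 3 called genes with the largest change of the mean of M and ET and a mean FPKM of at least 5 were named, except 1 that is not reported here. Near-identical copies were found by aligning transcripts of GENCODE M21 at 95% identity over 300 bases, and their sum was added as an alternative after the data were seen. Promoter windows came from RefSeq on GRCm38.p6. The fits were tested on simulated data. Alternatives were other scaling, filters, limma 3.58.1 on log2(FPKM + 1) or log2(FPKM + 0.1), quantile normalisation, DESeq2 1.42.0, a replicate block, 6 libraries only and leaving out each library. Protein, isoform usage and sequence variants were not analysed here.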

Additional observations from a re-analysis of the deposited data

How the results depend on the processing

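Over 33 tested rows and 4 comparisons, 2607 values were computed under alternatives. Of these, 2574 had the call reported, 20 lost it, 6 gained one, and 7 changed sign with a call before or after. Another 39, among the 2574, were called in neither fit and changed sign near 0, mostly Slc16a1 and Egln1 against Normal and, between M and ET, Hk2 and the smaller Aldoa row (up to 0.27). The 7 with a call came with quantile-normalised values in limma: Gpi1 at -0.08 for M with Normal, -0.03 for ET with Normal and -0.05 for their mean, Slc16a1 at -0.08, -0.10 and -0.09, and Pkm at 0.03 for M with ET. The same setting called 7 rows lower in M than in Normal, against 4. The median of all genes moved by at most 0.09 on the log2 scale under any scaling. Between M and ET, the genes called higher in M over the whole table numbered 345 (1.32% of those tested) without the FPKM filter, 895 (7.76%) with DESeq2 and 339 (2.94%) with limma at a pseudocount of 0.1, against 573 (4.97%). Those called lower numbered 270 (1.03%) without the filter and 787 (6.82%) with DESeq2, against 475 (4.12%). Leaving out 1 library at a time gave 2.30 to 9.72% of genes higher and 2.12 to 6.13% lower, and 2 or 3 members in each direction. The cause was not tested.

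Replicate numbers did not pair the libraries: deviations of same-numbered libraries correlated by -0.09 to 0.06. With the replicate block, Pkm (log2 -0.10, edgeR adjusted p = 0.0593) and Bnip3 (log2 0.24, edgeR adjusted p = 0.055) lost their calls between M and ET, and the counts of members called against Normal were 26 higher and 4 lower in M, as without it. Family shares could not be recomputed differently from counts per kilobase, because FPKM uses the same length for a gene in each library. Genes at a few counts, such as Ldhb, Egln3 and P4ha2, are too shallow for a comparison.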

Other observations

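The subunits of the pyruvate dehydrogenase complex, which takes pyruvate into the citric acid cycle, did not move as 1 block. These genes were picked after their values were seen. Pdha1, the catalytic alpha subunit, fell to 23.2 to 25.0 FPKM in M and 22.0 to 23.7 FPKM in ET, against 31.7 to 33.1 FPKM in Normal (edgeR adjusted p = 1.16e-05 in M and 1.66e-06 in ET). Pdhb, its beta partner, fell by 0.17 (SE 0.038) in M and by 0.13 (SE 0.038) in ET on the log2 scale. Dlat, the acetyltransferase core, rose by 0.31 (SE 0.034) in M and 0.33 (SE 0.034) in ET. Dld was at -0.04 (SE 0.059) in M, where it was not called, and fell by 0.18 (SE 0.059) in ET. Pdhx, another subunit, was at 0.03 (SE 0.047) in M, where it was not called, and rose by 0.14 (SE 0.047) in ET.

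Among the other HIF1 targets, a few differed between M and ET, and they are named after their values were seen. Hmox1, heme oxygenase 1, rose over Normal by 2.88 (SE 0.038) in M and by 3.60 (SE 0.039) in ET on the log2 scale. It was lower in each M library than in ET, at 425, 431 and 409 FPKM in ET and 35.8, 37.4 and 37.1 FPKM in Normal. Its log2 fold change in M over ET was -0.71 (SE 0.035, edgeR adjusted p = 6.48e-07). Ddit4, an inhibitor of mTORC1, was higher in M, with 11.4 to 12.4 FPKM against 8.75 to 9.74 FPKM in ET (log2 0.38, SE 0.078, edgeR adjusted p = 0.011). Mxi1, an antagonist of MYC, was also higher in M, by 0.30 (SE 0.042, edgeR adjusted p = 8.95e-04).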
